A study of Mus musculus with 46 samples.

Results

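The 10 genes followed here mark fat cells and the making of fat. *Adipoq* encodes adiponectin, a hormone that fat cells secrete. *Plin1* and *Cidec* coat the lipid droplet, *Fabp4* carries fatty acids inside fat cells, and *Pparg* encodes the nuclear receptor that drives fat cell differentiation. *Acaca* and *Fasn* encode the enzymes that build palmitate from acetyl-CoA, *Scd1* desaturates fatty acids, *Dgat2* attaches the last fatty acid of a triglyceride, and *Thrsp* encodes a small protein of lipogenic tissues. They were picked by symbol, with earlier results from these data known, and all 10 are present in both count tables, among 17514 genes in the gastrocnemius and 16987 in the spinalis. Fat between and around muscle fibres can be carried along with the muscle, so the values are given library by library.

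The study sequenced muscle RNA, as total RNA libraries, of C57BL/6J mice (C57BL6 in the labels) when androgen was taken away or added. The mice carry (WT) or lack (KO) *Actn3*, the gene of the alpha-actinin of fast muscle fibres. Male mice were orchidectomized (ORX, removal of the testes) or sham-operated at 8 to 10 weeks of age, and the gastrocnemius was taken 12 weeks later. Female mice received at 4 to 5 weeks an implant with 10 mg of dihydrotestosterone (DHT, the potent androgen) or an empty one, and the spinalis was taken 6 weeks later. In males there are 6 libraries each of WT-sham, KO-sham and WT-ORX muscle and 5 of KO-ORX. In females there are 5 libraries each of WT-empty and KO-empty muscle and 6 each of WT-DHT and KO-DHT. As far as the labels say, every library is a separate mouse. ORX against sham asks what loss of testicular hormones does to these genes in each genotype, DHT against empty asks what added androgen does, and KO against WT asks what the lack of *Actn3* does at each treatment. Gastrocnemius libraries are named by the replicate number of their labels and spinalis libraries by the mouse number of their column.

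The libraries held between 26.65 and 55.37 M counts, M standing for 1e6. KO-sham libraries were the shallowest as a group, with a median of 34.27 M, and WT-DHT libraries the deepest, with 51.99 M. *Actn3* matched the genotype in every library. Its lowest, median and highest levels were 5977, 6724 and 7052 CPM (counts per 1e6 counts of the scaled library) in WT-sham, 7826, 8964 and 9617 in WT-ORX, 35.8, 46.5 and 54.8 in KO-sham and 34.3, 45.2 and 53.1 in KO-ORX. In the spinalis they were 8592, 9812 and 10350 in WT-empty, 6164, 7276 and 7703 in WT-DHT, 56.6, 67.5 and 83.2 in KO-empty and 61.4, 66.8 and 77.5 in KO-DHT. All 7 muscle fibre markers were present in both tissues, *Myh4*, the fastest myosin, was the most abundant, and the summed markers ran from 85550 to 126000 CPM in the gastrocnemius and from 112700 to 163800 CPM in the spinalis.

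Per kb of exon, *Scd1* was the most abundant of the 10 genes in 7 of 8 groups, from 51.4 CPM per kb in WT-sham to 173 in KO-DHT. The exception was KO-sham, where *Fabp4* stood at 48.3 and *Scd1* at 44.7. The adipocyte genes *Adipoq* and *Cidec* came to 15.7 to 21.7 and 4.89 to 8.75 CPM per kb in the gastrocnemius, and to 30.7 to 47.6 and 18.5 to 31.9 in the spinalis. *Fasn* stood at 3.48 to 10.7 in the gastrocnemius and 18.9 to 69.2 in the spinalis. *Acaca* and *Pparg* were the least abundant in most groups, *Acaca* at 1.24 to 5.10 and *Pparg* at 1.63 to 3.20 across the 8 groups. Each table was normalized separately, and muscle, sex and age differ between them, so levels were not tested across the tables.

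Within the gastrocnemius, the mean log2 level of *Adipoq*, *Plin1*, *Cidec*, *Pparg* and *Thrsp* ran from WT-ORX (lowest) through WT-sham and KO-sham to KO-ORX. For *Scd1*, *Fasn* and *Acaca* the order was KO-sham, WT-sham, WT-ORX, KO-ORX, for *Fabp4* it was WT-sham, WT-ORX, KO-sham, KO-ORX, and for *Dgat2* it was WT-ORX, KO-ORX, WT-sham, KO-sham. Neighbours in each order overlapped library by library, except *Acaca* between WT-ORX and KO-ORX. In the spinalis 8 of the 10 genes ran WT-DHT, KO-DHT, WT-empty, KO-empty. *Fabp4* ran WT-DHT, WT-empty, KO-DHT, KO-empty, and *Dgat2* ran WT-empty, WT-DHT, KO-empty, KO-DHT. All spinalis neighbours overlapped. This order averages log2 levels, while the fitted fold changes given further on weigh counts, and the signs differ in 4 comparisons, none past the threshold. *Adipoq* in WT had mean log2 levels of 4.35 after ORX and 4.40 in sham with a fitted difference of 0.02, and *Cidec* in KO had 3.87 and 3.84 with -0.15. *Scd1* in KO had 9.33 with DHT and 9.59 without, where its mean CPM was higher with DHT (848 against 796) and the fitted difference 0.09. *Cidec* with empty implants had 5.83 in both genotypes with a fitted difference of -0.01.

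**Figure D1:**
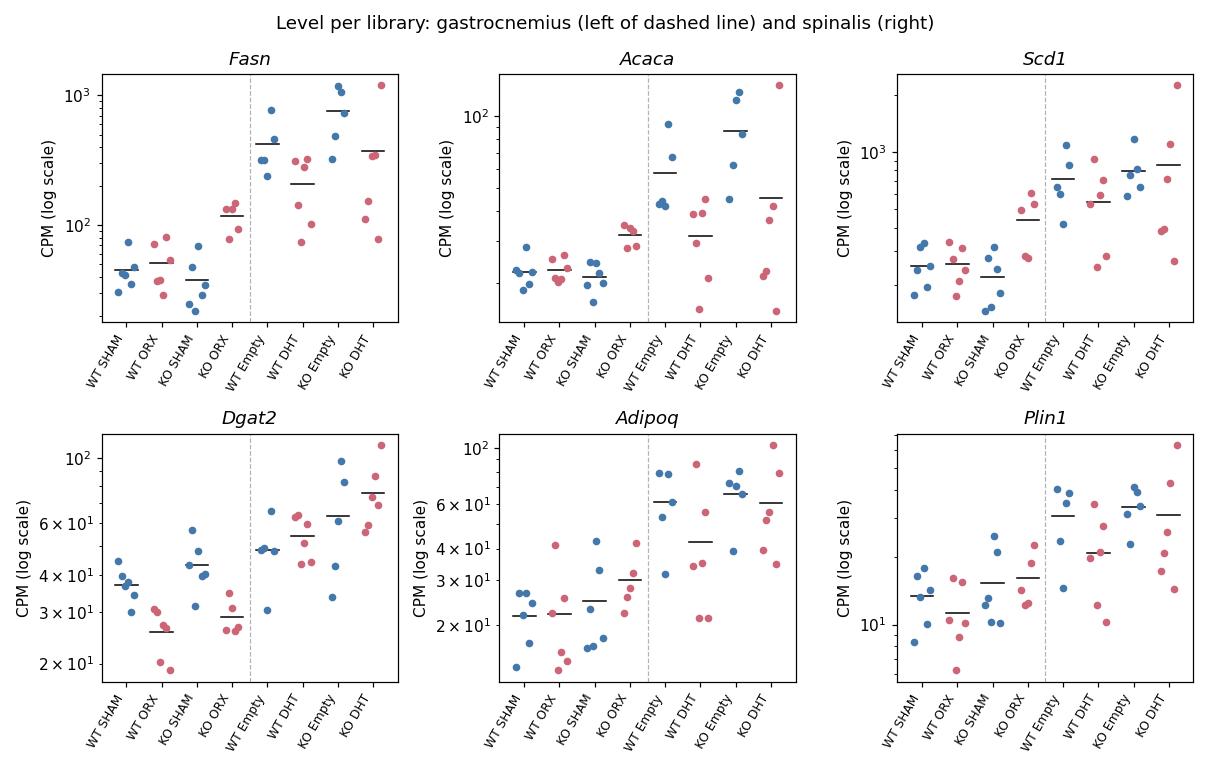
Level of 6 genes in every library (CPM on log axes), gastrocnemius left and spinalis right of the dashed line. Points are libraries (blue for sham or empty, red for ORX or DHT) and bars are group means; *Fasn* lies between 78.7 and 148 CPM in KO-ORX and between 21.99 and 69.2 in KO-sham.

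After ORX the fatty acid synthesis genes rose in KO muscle. *Fasn* was 3.08-fold, *Scd1* 2.004-fold and *Acaca* 1.496-fold the KO-sham level, while *Dgat2* fell. These 4 of the 10 genes had an adjusted p of 0.01 or less in the quasi-likelihood test of edgeR (adjusted by Benjamini-Hochberg over all genes), a threshold that 5.57 percent of the 17514 genes passed in KO in either direction. In WT, where 5.45 percent of the genes passed, 1 of the 10 did, and it was *Dgat2*, also lower after ORX. Over the 10 genes the log2 fold changes had a median of 0.25 in KO and -0.07 in WT, against 0.01 over all genes in each.

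*Fasn* stood at 133, 78.7, 133, 148 and 94.2 CPM in KO-ORX 1 to 5. In the 6 KO-sham libraries its lowest, median and highest levels were 21.99, 31.99 and 69.2 CPM. All 5 KO-ORX libraries lay above all 6 KO-sham libraries, the nearest being KO-ORX 2 and KO-sham 4. The log2 fold change was 1.62 (SE 0.28, adjusted p 0.000313). With any single library left out it stayed between 1.51 and 1.88, with an adjusted p of at most 0.00157. *Acaca* stood at 35.1, 28.0, 34.1, 33.1 and 28.7 CPM in KO-ORX 1 to 5 against 16.7, 21.1 and 24.4 CPM (lowest, median, highest) in KO-sham, again with no overlap. Its log2 fold change was 0.58 (SE 0.10, adjusted p 0.000375, higher in 5 of 5 libraries), and 0.52 to 0.63 with single libraries left out, all past the threshold.

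*Scd1* stood at 494, 284, 277, 606 and 532 CPM in KO-ORX 1 to 5. Its lowest, median and highest KO-sham levels were 146, 212 and 315 CPM, so KO-ORX 2 and 3 lay inside the KO-sham range and the other libraries above it. The log2 fold change was 1.00 (SE 0.22, adjusted p 0.00372), with all 5 KO-ORX libraries above the KO-sham median. The call ended without any one of 6 libraries: without KO-sham 1, 3 or 6 the change was 0.91 (adjusted p 0.0105), 0.92 (0.0118) and 0.95 (0.0108), and without KO-ORX 1, 4 or 5 it was 0.96 (0.0115), 0.86 (0.0192) and 0.92 (0.0141). It ended also in the fit of the 2 groups alone (1.00, adjusted p 0.0119). *Thrsp*, in KO-ORX at 18.9, 21.98, 23.4, 15.5 and 13.7 CPM and in KO-sham at 9.34 to 32.6, had a log2 difference of 0.24 and was not past the threshold. KO-sham 4, the KO-sham library with the highest *Thrsp*, was also the highest of its group for *Fasn*, *Scd1* and all 5 adipocyte genes. Without it the *Thrsp* difference was 0.59 (adjusted p 0.0803), still not past the threshold.

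In WT the same enzymes were not past the threshold. *Fasn* ran 30.9, 42.4 and 74.7 CPM (lowest, median, highest) in WT-sham and 29.2, 45.7 and 81.0 in WT-ORX, a log2 difference of 0.18 (adjusted p 0.759). *Acaca* had medians of 22.2 CPM in both groups (log2 difference 0.03), and *Scd1* had medians of 245 and 256 CPM (log2 difference 0.04).

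**Figure D2:**
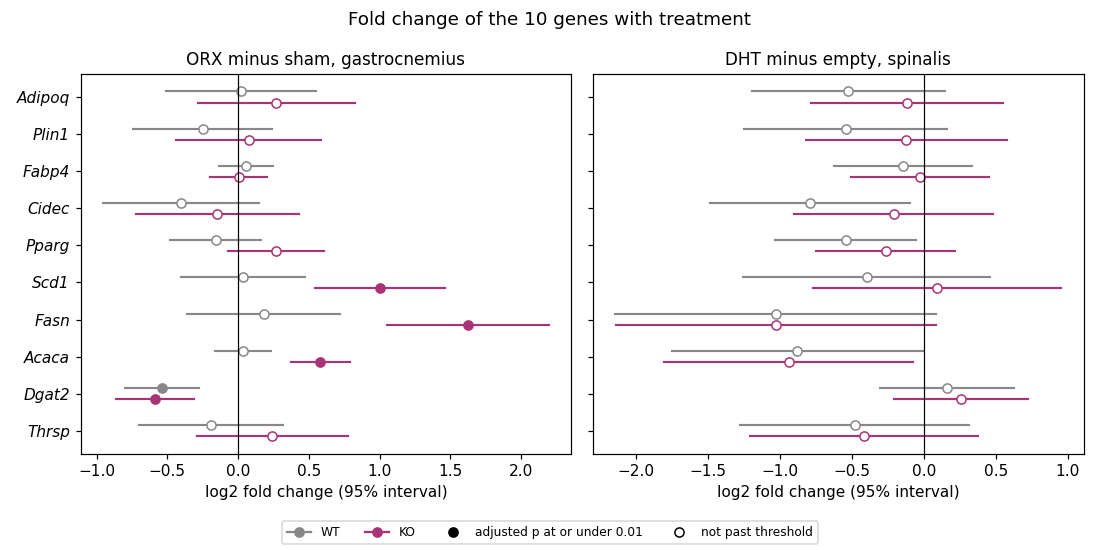
Log2 fold change of the 10 genes with 95% confidence interval, ORX minus sham in gastrocnemius on the left and DHT minus empty in spinalis on the right, grey for WT and purple for KO. Filled points have an adjusted p of 0.01 or less: *Dgat2* in both genotypes and *Fasn*, *Scd1* and *Acaca* in KO after ORX, and none after DHT.

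*Dgat2*, the last enzyme of triglyceride synthesis, fell after ORX in both genotypes. Its lowest, median and highest levels were 29.8, 37.2 and 44.5 CPM in WT-sham and 19.0, 26.8 and 30.7 in WT-ORX. All 6 WT-ORX libraries lay below the WT-sham median, and WT-ORX 1 and 2 lay above the lowest sham library. In KO it stood at 25.9, 34.8, 31.0, 25.8 and 26.6 CPM in KO-ORX 1 to 5, against 31.3, 41.7 and 56.8 CPM in KO-sham, and only KO-ORX 2 reached into the KO-sham range. The log2 fold change was -0.54 in WT (SE 0.13, adjusted p 0.0059, lower in 6 of 6) and -0.59 in KO (SE 0.13, adjusted p 0.00455, lower in 5 of 5), and the interaction of genotype and ORX was -0.05 (adjusted p 0.958). The WT call ended without WT-sham 1 (-0.48, adjusted p 0.0199), 2 (-0.52, 0.0144), 3 (-0.54, 0.0114) or 4 (-0.53, 0.0126), or without WT-ORX 3 (-0.48, 0.0191) or 6 (-0.46, 0.019). The KO call ended without KO-sham 2 (-0.50, 0.0161) or 4 (-0.55, 0.0116), or without KO-ORX 1 (-0.55, 0.0159), 4 (-0.55, 0.0184) or 5 (-0.56, 0.0162). Scaling by library size in place of TMM gave -0.49 (adjusted p 0.0108) and -0.48 (0.0155), and that scaling moved the median of all genes in KO by 0.11, from 0.01 to 0.12.

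None of the 5 adipocyte genes passed the test after ORX in either genotype. edgeR, DESeq2 and limma-voom each called 0 of the 5, and in each genotype 0 had an unadjusted p under 0.05. *Adipoq* stood at 22.2, 25.8, 28.0, 31.9 and 42.0 CPM in KO-ORX 1 to 5 and at 16.2, 20.3 and 42.8 CPM (lowest, median, highest) in KO-sham, with a log2 difference of 0.27 (adjusted p 0.594). In WT-sham it ran 13.7, 23.1 and 26.8 CPM and in WT-ORX 13.2, 18.9 and 41.2, a log2 difference of 0.02. With single libraries left out, this WT difference ran from -0.25 to 0.13 (adjusted p of 0.601 or more), so its sign turned. For *Plin1*, *Cidec*, *Pparg* and *Fabp4* the log2 differences in WT and KO were -0.25 and 0.08, -0.40 and -0.15, -0.16 and 0.27, and 0.05 and 0.00. KO-sham 4 carried 42.8 CPM of *Adipoq* and 36.1 CPM of *Cidec*, against at most 33.0 and 17.7 CPM in the other KO-sham libraries. Without KO-sham 4 the KO differences were 0.49 for *Adipoq*, 0.27 for *Plin1*, 0.26 for *Cidec*, whose sign turned, 0.37 for *Pparg* and 0.05 for *Fabp4*, none past the threshold (adjusted p of 0.159 or more).

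The white fat markers outside the 10 genes were likewise given library by library. All 9 were present in the gastrocnemius, and *Plin4*, a droplet coat protein that muscle fibres also make, was the most abundant. *Adrb3*, the adrenergic receptor of fat cells, was close to 0, with group means of 0.206 to 1.39 CPM. The summed level of the 9 was 503, 631, 453, 435 and 514 CPM in KO-ORX 1 to 5 and had a median of 443 CPM in KO-sham, where KO-sham 4 was highest at 713. The WT medians were 489 CPM in sham (lowest 396, highest 595) and 546 CPM in ORX (449, 687), so all 4 groups overlapped. edgeR, DESeq2 and limma-voom called 0 of the 9 in either genotype, with 0 in WT and 1 in KO at an unadjusted p under 0.05. Of the 6 brown fat markers, *Dio2*, *Cidea* and *Kcnk3* were in the gastrocnemius table, and *Ucp1*, *Elovl3* and *Otop1* were not. The sum of the 3 ran from 4.06 to 10.96 CPM with sham medians of 6.36 (WT) and 6.37 (KO) and ORX medians of 6.99 (WT) and 7.86 (KO), and the 3 tools called 0 of them, with 0 in WT and 2 in KO at an unadjusted p under 0.05. In bulk muscle, fewer fat cells and less RNA per fat cell cannot be told apart, and the share of carried fat in the *Fasn*, *Scd1*, *Acaca* and *Dgat2* changes was not tested beyond a fit with the white markers as a covariate, in which all 4 remained past the threshold in KO and *Dgat2* in WT.

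Between the genotypes, *Fasn* and *Acaca* were higher in KO than in WT after ORX. *Fasn* stood at 78.7 to 148 CPM in KO-ORX against 29.2, 45.7 and 81.0 (lowest, median, highest) in WT-ORX, 2.27-fold. WT-ORX 5 lay just above KO-ORX 2, and the other libraries of the groups did not overlap. *Acaca* was 1.39-fold higher, at 28.0 to 35.1 CPM against 20.2, 22.2 and 26.2, with no overlap. These 2 of the 10 genes passed the threshold that 3.80 percent of all genes passed. The log2 differences were 1.18 for *Fasn* (SE 0.27, adjusted p 0.00636) and 0.48 for *Acaca* (SE 0.10, adjusted p 0.00266), each higher in 5 of 5 KO-ORX libraries. All 10 genes had a positive difference, 7 with an unadjusted p under 0.05, and their median was 0.54 against 0.01 over all genes. Such p values were common, *Plin1* at an unadjusted 0.0459 by edgeR ranking 3200th of all 17514 genes. Of the genes not past the threshold, *Pparg* (0.56, adjusted p 0.0314) and *Scd1* (0.77, adjusted p 0.0322) came closest, higher in 4 of 5 and 5 of 5 libraries.

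The *Fasn* difference after ORX lost its call without KO-ORX 1 (1.13, adjusted p 0.018), 3 (1.13, 0.0163) or 4 (1.08, 0.0232), or without WT-ORX 2 (1.10, 0.0173), 3 (1.11, 0.019), 4 (1.06, 0.0172) or 6 (1.19, 0.0124). The *Acaca* difference lost its call without KO-ORX 1 (0.44, adjusted p 0.0113), and with the white fat markers as a covariate *Fasn* and *Acaca* came to 0.92 (0.0223) and 0.40 (0.0139). *Pparg* entered without KO-ORX 2 (0.68, adjusted p 0.00661). The 9 white markers had a median log2 difference of 0.38 in this comparison, with 0 called by edgeR, DESeq2 or limma-voom and 5 at an unadjusted p under 0.05, and their part in the differences of the 10 genes was tested by that covariate alone.

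In sham muscle none of the 10 genes passed between the genotypes, where 5.30 percent of all genes did. edgeR, DESeq2 and limma-voom each called 0, and *Fabp4* alone had an unadjusted p under 0.05 (log2 difference 0.20, adjusted p 0.198). Whether the response to ORX itself differed by genotype was tested as the interaction, which 0.0228 percent of all genes passed at an adjusted p under 0.05. edgeR and limma-voom called 0 of the 10 genes, 3 had an unadjusted p under 0.05, and DESeq2 called *Acaca* (0.54, adjusted p 0.0288). By edgeR the interaction was 1.44 for *Fasn* (SE 0.38, adjusted p 0.14), 0.55 for *Acaca* (SE 0.14, adjusted p 0.126) and 0.97 for *Scd1* (SE 0.31, adjusted p 0.255). The rise of these enzymes in KO is therefore not shown to differ from WT across all genes tested. ORX in KO, KO against WT after ORX and the interaction share the KO-ORX libraries.

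Other genes of fatty acid synthesis rose with *Fasn* in KO after ORX. Of 26 further pathway genes, 4 rose and 0 fell, where 1.99 percent of all genes rose and 3.58 percent fell. *Elovl6*, which lengthens palmitate, ran 1.83, 2.38 and 2.58 CPM (lowest, median, highest) in KO-sham against 3.69, 4.93 and 7.85 in KO-ORX. *Fads1*, a desaturase, ran 5.99, 8.07 and 8.89 against 10.7, 12.6 and 13.8. *Acly*, which supplies cytosolic acetyl-CoA, ran 25.3, 26.68 and 30.9 against 33.7, 41.5 and 52.6. The groups of these 3 genes did not overlap. Their log2 fold changes were 1.21 (adjusted p 0.000251), 0.68 (7.81e-05) and 0.61 (0.00146), higher in 5 of 5 libraries each, and no setting or left-out library ended these calls. *Fads2*, the other front-end desaturase, rose by 0.58 (SE 0.14, adjusted p 0.00673, groups overlapping). That call ended without KO-sham 1, 2, 3, 4 or 6 or KO-ORX 1 or 4, with an adjusted p of up to 0.031, and in the fit of those 2 groups alone.

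The 26 pathway genes had a median log2 fold change of 0.06 in KO, against 0.01 over all genes, and 12 had an unadjusted p under 0.05. Low unadjusted p values were common in this edgeR test, where *Pparg* at 0.115 ranked 6029th of 17514 genes. The share of all genes under 0.05 is not given, so the 12 are a description only. In WT, where 2.04 percent of all genes rose and 3.41 percent fell, 0 of the 26 rose and 1 fell. It was *Insig1*, which holds back the sterol-sensing activator of lipogenesis. It ran 18.2, 23.9 and 25.2 CPM in WT-sham and 14.8, 17.0 and 20.1 in WT-ORX, a log2 fold change of -0.42 (SE 0.08, adjusted p 0.000583), and scaling by library size ended the call (adjusted p 0.0122). In the interaction edgeR and limma-voom called 0 of the 26, DESeq2 called 2, and 9 had an unadjusted p under 0.05. The interaction of *Acly* was 0.61 (adjusted p 0.155), of *Fads1* 0.52 (0.151) and of *Elovl6* 0.83 (0.298). *Gpd1*, which makes the glycerol backbone, was the most abundant pathway gene, with medians of 324 to 377 CPM across the 4 groups.

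*Srebf1*, the sterol-regulated activator of fatty acid synthesis genes, was lower in KO than in WT sham muscle, at 21.8, 29.2 and 33.1 CPM against 38.3, 44.0 and 52.4 with no overlap (log2 difference -0.64, SE 0.11, adjusted p 0.000195). Of the 26 genes 3 were lower and 0 higher in KO sham muscle, the others being *Me1*, which makes NADPH (-0.38, adjusted p 4.64e-06), and the desaturase *Scd2* (-0.60, adjusted p 0.00608), where 2.48 percent of all genes were higher and 2.82 percent lower. The *Scd2* call ended in limma-voom and without KO-sham 3, 5 or 6 or WT-sham 2, 4, 5 or 6 (adjusted p up to 0.0209). After ORX *Me1* was again lower (-0.53, adjusted p 8.25e-08) and *Elovl6* higher (0.84, adjusted p 0.0069) in KO. The *Elovl6* call ended with the white fat markers as a covariate, in the fit of those 2 groups and without KO-ORX 1, 3 or 4 or WT-ORX 2, 3 or 4, with values down to 0.65 (adjusted p up to 0.0378). The median of the 26 was -0.13 in sham and 0.07 after ORX, against -0.01 and 0.01 over all genes.

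The promoters of *Fasn*, *Acly* and *Elovl6* are printed as examples of genes that rose after ORX in KO with no overlap between groups, a choice made after their values were seen. *Acaca* and *Fads1* rose without overlap too and are not printed. They are the RefSeq windows on build GRCm38.p6, 300 bases around each start, at chr11:120824498-120824797 (minus strand), chr11:100527951-100528250 (minus strand) and chr3:129532136-129532435 (plus strand). Capitals mark CANNTG (the E-box) and CCAAT on either strand, and TCACNCCAC (a sterol response element), which none of the 3 holds.
Fasn: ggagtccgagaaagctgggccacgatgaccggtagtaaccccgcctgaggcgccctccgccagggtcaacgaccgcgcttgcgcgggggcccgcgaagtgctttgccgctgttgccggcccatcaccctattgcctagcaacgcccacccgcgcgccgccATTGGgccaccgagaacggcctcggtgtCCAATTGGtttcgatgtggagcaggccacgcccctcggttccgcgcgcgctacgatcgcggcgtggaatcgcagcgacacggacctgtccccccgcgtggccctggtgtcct
Acly: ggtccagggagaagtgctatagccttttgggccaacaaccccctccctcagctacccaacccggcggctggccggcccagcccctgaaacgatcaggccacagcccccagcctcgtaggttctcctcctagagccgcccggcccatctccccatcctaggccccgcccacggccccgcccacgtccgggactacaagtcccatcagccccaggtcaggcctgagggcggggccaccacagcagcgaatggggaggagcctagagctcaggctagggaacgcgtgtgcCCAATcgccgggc
Elovl6: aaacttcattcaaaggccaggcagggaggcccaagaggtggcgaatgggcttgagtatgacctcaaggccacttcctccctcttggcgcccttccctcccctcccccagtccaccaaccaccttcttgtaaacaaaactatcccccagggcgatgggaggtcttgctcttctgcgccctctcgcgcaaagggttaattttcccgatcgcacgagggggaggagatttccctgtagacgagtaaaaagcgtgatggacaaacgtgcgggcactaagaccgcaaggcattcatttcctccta
The *Fasn* window holds CCAAT 3 times and the E-box once, the last of them overlapping in a single run. The *Acly* window holds CCAAT once and GGGCGG (the GC box, not capitalized) 4 times. The *Elovl6* window holds neither these nor TATAAA, which means only that those letters are not there. Of 32851 mouse promoter windows, 72.3% hold CANNTG, 37.4% CCAAT, 35.7% GGGCGG, 13.6% TATAAA and 1.24% TCACNCCAC. Of the 10 genes, 7 had a window (*Adipoq*, *Plin1*, *Cidec*, *Pparg*, *Fasn*, *Acaca* and *Thrsp*). A match is a description of the letters alone.

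All lipid droplet and PPARG-related genes that passed after ORX fell. Of 24 such genes, 4 fell and 0 rose in KO, where 3.58 percent of all genes fell and 1.99 percent rose, and 3 fell and 0 rose in WT, where 3.41 and 2.04 percent did. *Plin3*, a droplet coat protein, fell in both, its log2 fold change being -0.52 in WT (adjusted p 0.000723, 22.8 against 32.8 CPM in the median, no overlap) and -0.53 in KO (adjusted p 0.00146, and 0.011 in the fit of those 2 groups). In KO *Plin5*, the droplet coat of oxidative tissue, fell from a median of 18.0 to 12.2 CPM (-0.70, adjusted p 0.00829), a call lost in 13 of the 23 fits with a library left out, under library-size scaling and in the fit of the 2 groups (adjusted p up to 0.0365). *Fabp3*, the fatty acid carrier of muscle, fell from 129.6 to 69.0 CPM (-0.74, adjusted p 0.00268), and its call ended without KO-ORX 4 or 5 (adjusted p up to 0.0127). *Abhd5*, a co-activator of triglyceride lipase, fell by 0.22 on the log2 scale in KO (adjusted p 0.00225), a call lost under library-size scaling, which gave the smallest value, -0.11, in the fit of the 2 groups and without KO-ORX 4 (adjusted p up to 0.191). In WT the lipase *Pnpla2* (-0.34, adjusted p 0.00234, and 0.0139 in the fit of the 2 groups) and the fatty acid transporter *Cd36* (-0.31, adjusted p 0.00996) fell too. The *Cd36* call lay at the threshold and was lost in 16 of the 23 fits with a library left out, under library-size scaling, with the filter of 10 counts and in the fit of the 2 groups (adjusted p up to 0.0412). All ORX libraries lay on the lower side of the sham median for *Plin3*. The list medians were -0.08 in WT and -0.09 in KO, against 0.01 over all genes in each. Library-size scaling moved the list and all genes by about the same amount: in KO the list came to 0.02 and all genes to 0.12, and in WT the list to -0.04 and all genes to 0.05. Between genotypes *Rxra*, the partner receptor of PPARG, was lower in KO in sham (-0.27, adjusted p 0.00396) and after ORX (-0.42, adjusted p 8.95e-05), as was the adiponectin receptor *Adipor1* (-0.23, 0.000466, and -0.25, 0.000482). The *Rxra* call in sham ended without KO-sham 2 or 6 or WT-sham 4 or 6 (adjusted p up to 0.0152), and the *Adipor1* call after ORX under library-size scaling (adjusted p 0.0339). The interaction had 0 of the 24 called by edgeR, DESeq2 or limma-voom, and 1 at an unadjusted p under 0.05.

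After DHT none of the 10 genes passed the test in either genotype. In WT 11.3 percent of all genes passed and in KO 4.62 percent. edgeR, DESeq2 and limma-voom each called 0 of the 10 in both, and 3 in WT (*Cidec*, *Pparg*, *Acaca*) and 1 in KO (*Acaca*) had an unadjusted p under 0.05. Low unadjusted p values were widespread among all 16987 genes. By edgeR *Acaca* ranked 4994th in WT (0.0479) and 3686th in KO (0.035), so these counts do not set the 10 genes apart. The log2 differences were negative for 9 of 10 genes in WT, with a median of -0.53, and for 8 of 10 in KO, with a median of -0.16, against -0.01 over all genes in each. Without mouse 63 of KO-DHT the KO median was -0.47, with 9 of 10 negative. *Dgat2* was the exception in both, at 0.16 in WT and 0.26 in KO, and *Scd1* was at -0.40 in WT and 0.09 in KO. The interaction of genotype and DHT, which 3.24 percent of all genes passed, had 0 of the 10 called by any of the 3 tools and 0 at an unadjusted p under 0.05.

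In 3 of the 4 spinalis groups a pair of libraries stood apart from the rest over the whole table, by chi-square per degree of freedom between the counts of 2 libraries. WT-DHT mice 39 and 50 lay at 283 to 622 from the other 4, which lay at 20.7 to 42.2 among themselves, and their TMM scaling factors of 0.846 and 0.897 were the lowest of the group. KO-DHT mice 6 and 25 lay at 110.5 to 266 from the other 4 (24.4 to 90.5 among themselves), and WT-empty mice 4 and 7 at 70.3 to 185 from the other 3 (25.3 to 54.3). No gastrocnemius group had such a pair. A single gastrocnemius library, KO-sham 1, lay at 46.4 to 140 from the other 5 of its group (10.1 to 47.6 among themselves). Its TMM scaling factor of 0.9005 was the lowest in the gastrocnemius. Fits without each spinalis pair, added after the pairs were seen, called 0 of the 10 genes in any comparison. The list median of the 10 after DHT was -0.50 in WT without mice 39 and 50, -0.76 in WT without mice 4 and 7, and -0.06 in KO without mice 6 and 25. In KO against WT it was 0.50 with DHT without mice 39 and 50, 0.67 with DHT without mice 6 and 25, and -0.01 with empty implants without mice 4 and 7.

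Several calls given below were lost in these fits. Without mice 39 and 50 they were *Gpam*, *Pnpla3*, *Cfd* and *Pecam1* after DHT in WT, *Tecr* and *G0s2* in KO against WT with DHT, and *Acacb* in the interaction. Without mice 6 and 25 they were *Adipor2* and *Cfd* after DHT in WT, *Srebf1* and *Plin4* after DHT in KO, *Acacb*, *Tecr*, *G0s2* and *Plin3* in KO against WT with DHT, and *Acacb* and *Tecr* in the interaction. Without mice 4 and 7 they were *Acacb*, *Gpam*, *Mlxipl*, *Pnpla3*, *Cebpb*, *Plin4*, *Adipor2* and *Pecam1* after DHT in WT, *Lpin1*, *Srebf1*, *Plin4* and *Tnnt3* in KO against WT with empty implants, *G0s2* with DHT, and *Acacb* and *Tecr* in the interaction. The first fit added *Plin3* after DHT in WT and in the interaction, *Adipor1* in KO against WT with empty implants and *Pvalb* in the interaction, and the last added *Retn* after DHT in WT. Why the pairs stand apart was not tested.

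*Fasn* varied widely within the spinalis groups. It stood at 316, 318, 238, 773 and 466 CPM in WT-empty mice 14, 4, 7, 35 and 49, and at 325, 491, 1176, 1069 and 728 CPM in KO-empty mice 17, 33, 64, 61 and 62. In WT-DHT its lowest, median and highest levels were 74.0, 213 and 324 CPM, and in KO-DHT 78.6, 247 and 1195 CPM. The WT groups overlapped, with 3 of the 6 WT-DHT libraries above the lowest WT-empty library, and the highest KO-DHT library, mouse 63, lay above every KO-empty library. The log2 difference was -1.03 in WT (SE 0.54, adjusted p 0.209, lower in 6 of 6) and -1.03 in KO (SE 0.54, adjusted p 0.241, lower in 5 of 6), and the interaction was 0.00 (SE 0.755). *Acaca* stood at 43.1, 44.3, 42.0, 92.6 and 67.6 CPM in WT-empty and 44.9, 62.7, 117, 126 and 84.5 in KO-empty, in the same order of mice. In WT-DHT it ran 15.6, 34.2 and 45.1 CPM and in KO-DHT 15.3, 29.6 and 134, the last in mouse 63. Its log2 difference was -0.88 in WT (adjusted p 0.163, lower in 6 of 6) and -0.94 in KO (adjusted p 0.161, lower in 5 of 6).

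The KO values turned on mouse 63 of KO-DHT. It had the highest level of its group for 9 of the 10 genes, all but *Adipoq*: *Fasn* (1195 CPM), *Acaca* (134), *Scd1* (2234), *Thrsp* (118), *Dgat2* (110.5), *Fabp4* (480.0), *Pparg* (14.3), *Plin1* (63.4) and *Cidec* (85.3). Its brown fat markers summed to 247 CPM, against 2.96, 6.96, 4.23, 4.84 and 3.90 CPM in mice 16, 6, 25, 40 and 65, and *Ucp1*, the uncoupling protein of brown fat, came to 157 CPM against a group median of 0.609. Mouse 63 was picked after its values were seen, and leaving out the highest library lowers the KO-DHT level by choice. The edgeR values without it therefore describe its weight and are no test of DHT. Without mouse 63, *Acaca* after DHT in KO came to a log2 fold change of -1.65 (SE 0.32, adjusted p 0.00177), against -0.94 (SE 0.42, adjusted p 0.161) with it. *Fasn* then came to -1.87 (SE 0.46, adjusted p 0.0112), *Thrsp* to -0.98 (0.0458), *Scd1* to -0.48 (0.427), *Plin1* to -0.46 (0.381) and *Pparg* to -0.52 (0.102), and 736 genes passed in place of 784. The interaction without it was -0.84 for *Fasn* (adjusted p 0.571) and -0.77 for *Acaca* (0.418), and the KO against WT difference after DHT went from 0.84 to 0.00 for *Fasn*.

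Brown fat markers moved with *Fasn* across the spinalis. All 6 were present and *Ucp1* was the most abundant. Their sums were 52.1, 21.7, 5.16, 32.7 and 54.7 CPM in WT-empty mice 14, 4, 7, 35 and 49, and 20.6, 12.1, 66.2, 10.8 and 21.8 CPM in KO-empty mice 17, 33, 64, 61 and 62. In WT-DHT they ran 3.34, 14.2 and 51.8 CPM (lowest, median, highest) and in KO-DHT 2.96, 4.54 and 247. The lowest WT-empty library, mouse 7, also had the lowest *Fasn* of its group, and the highest KO-empty library, mouse 64, the highest, while mouse 61 of KO-empty had the lowest brown sum of its group and 1069 CPM of *Fasn*. edgeR, DESeq2 and limma-voom called 0 of the 6 after DHT in either genotype, with 0 in WT and 1 in KO at an unadjusted p under 0.05 and list medians of -1.04 and 0.46. The sign in KO turns on mouse 63: the other 5 KO-DHT sums lay below all KO-empty sums. Without that mouse the KO median was -2.31, with all 6 markers negative and 2 past the threshold. Mouse 63 was picked for having the highest brown sum, so leaving it out lowers these markers by choice. That fit describes how far the values rest on 1 library and is no test of DHT. After removing group means, log2 *Fasn* and the log2 brown marker sum correlated at r 0.76 (rho 0.74) over 22 spinalis libraries and 0.34 (rho 0.40) over 23 gastrocnemius libraries. With the mean log2 level of the markers in place of the sum it was 0.77 and 0.56. These are descriptions in which each point shares its library and depth. The 22 spinalis libraries include mouse 63, the highest of its group on both measures, and correlations without it are not given. The part of brown fat in the *Fasn* and *Acaca* values was not tested.

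**Figure D3:**
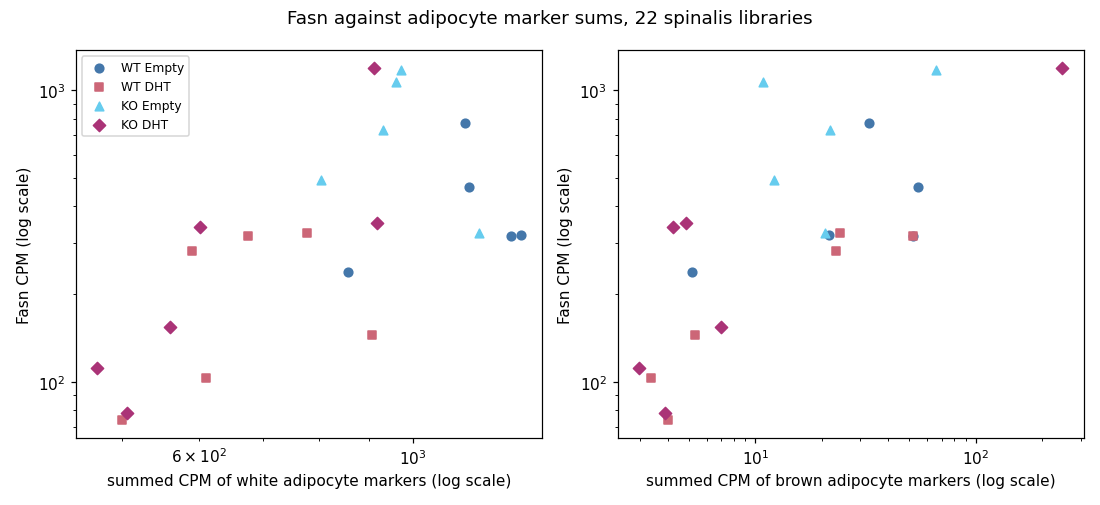
*Fasn* against the summed white (left) and brown (right) fat markers, CPM on log axes, 1 point for each of the 22 spinalis libraries, shaped and coloured by group. Mouse 63 of KO-DHT is the point at 247 CPM of brown markers and 1195 CPM of *Fasn*.

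The adipocyte genes after DHT also split by library. *Adipoq* stood at 79.3, 53.5, 31.7, 78.6 and 60.8 CPM in WT-empty mice 14, 4, 7, 35 and 49, and ran 21.2, 34.6 and 86.3 CPM in WT-DHT, where mouse 5 was highest. It stood at 72.5, 39.3, 70.7, 80.8 and 65.5 CPM in KO-empty mice 17, 33, 64, 61 and 62 and ran 34.9, 53.8 and 103 in KO-DHT, so the groups overlapped in both genotypes. The log2 differences were -0.52 in WT (adjusted p 0.301) and -0.12 in KO (adjusted p 0.874). *Cidec*, the droplet fusion protein, stood at 85.3, 59.4, 32.9, 61.3 and 57.2 CPM in WT-empty and ran 17.1, 33.2 and 60.05 in WT-DHT, with a log2 difference of -0.79 (adjusted p 0.11, lower in 5 of 6). *Pparg* was at -0.54 (adjusted p 0.119, lower in 5 of 6), *Plin1* at -0.54 and *Fabp4* at -0.15, against -0.26, -0.12 and -0.03 in KO. Without WT-DHT mouse 5, *Adipoq* came to -0.86 (adjusted p 0.0463), *Cidec* to -1.03 (0.0351) and *Pparg* to -0.73 (0.0285), still above the threshold of 0.01.

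White fat markers were lower after DHT where they passed. Of the 9, 2 fell in WT and 1 in KO, and 0 rose, where 4.64 percent of all genes fell in WT and 1.75 percent in KO. The list medians were -0.52 in WT, with 8 of 9 negative, and -0.08 in KO, with 7 of 9 negative, against -0.01 over all genes in each. Without mouse 63 the KO median was -0.28. *Plin4* ran 461, 559 and 813 CPM in WT-empty and 362, 396 and 484 in WT-DHT (-0.52, SE 0.12, adjusted p 0.0025), and 352, 393 and 454 in KO-empty against 232, 288 and 322 in KO-DHT (-0.51, SE 0.12, adjusted p 0.00611), lower in 6 of 6 in both. *Cfd*, the fat cell protease adipsin, ran 224, 356 and 489 CPM in WT-empty and 66.5, 141 and 302 in WT-DHT (-1.20, SE 0.32, adjusted p 0.00898), and its call ended in the fit of the 2 groups and in 12 of the 22 fits with a library left out, with values over all settings from -1.48 to -0.74. The *Plin4* call ended in WT without WT-empty mouse 4 (adjusted p 0.013), and in KO without KO-empty mouse 17 or 33 or KO-DHT mouse 16, 6 or 25 (adjusted p up to 0.0223). The summed white markers were 1266, 1294, 857, 1133 and 1144 CPM in WT-empty mice 14, 4, 7, 35 and 49, and 500, 643 and 908 CPM (lowest, median, highest) in WT-DHT. They were 1173, 804, 973, 959.9 and 932 CPM in KO-empty mice 17, 33, 64, 61 and 62, and 471, 581 and 919 in KO-DHT. *Plin4* and *Lipe* are made in muscle fibres too, and 3 of the 9 markers (*Plin4*, *Lipe*, *Pck1*) also stand in the droplet list. The part of fat carried with the spinalis in the values of the 10 genes was not tested. The covariate fit called 0 of them, but so did the fit without the covariate, so the count cannot speak to this.

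Pathway genes of lipogenesis moved both ways after DHT. In WT 3 rose and 4 fell of 26, and in KO 2 rose and 1 fell, where 6.63 percent of all genes rose and 4.64 percent fell in WT and 2.86 and 1.75 percent in KO. *Mid1ip1*, a partner of acetyl-CoA carboxylase, rose in both, from a median of 8.84 to 16.2 CPM in WT (1.00, SE 0.19, adjusted p 0.000419) and from 8.86 to 19.2 in KO (1.04, SE 0.19, adjusted p 0.000798), higher in 6 of 6 each. *Tecr*, which completes fatty acid elongation, rose in WT from 130.0 to 224 CPM with no overlap (0.83, SE 0.10, adjusted p 4.88e-07). *Acacb*, the carboxylase isoform of muscle, rose in WT from 253 to 367 CPM (0.40, adjusted p 0.00268), a call that ended under library-size scaling, with the white marker covariate, in the fit of the 2 groups and without WT-empty mouse 4, 7 or 35 or WT-DHT mouse 8 (adjusted p up to 0.0196). *Mlxipl*, the glucose-sensing activator of lipogenesis, fell in both, from 38.8 to 28.5 CPM in WT (-0.48, adjusted p 0.00106) and from 39.4 to 28.8 in KO (-0.53, adjusted p 0.00125). *Nr1h3*, the liver X receptor gene, fell in WT (-0.60, adjusted p 2.48e-05), as did *Gpam*, the entry enzyme of triglyceride synthesis (-0.50, adjusted p 0.00529), and *Pnpla3* (-1.17, adjusted p 0.00808). The *Gpam* call ended in the fit of the 2 groups and in 7 of the 22 fits with a library left out, and the *Pnpla3* call with the white marker covariate and in 10 of the 22, with adjusted p up to 0.0238 and 0.0389. Without WT-empty mouse 4 or 7, or WT-DHT mouse 8, the WT count was 4 in place of 7.

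*Srebf1* rose after DHT in KO from a median of 30.6 to 44.9 CPM (0.59, SE 0.13, adjusted p 0.00392, higher in 6 of 6), and in WT ran at medians of 46.4 and 54.9 CPM (log2 difference 0.22, adjusted p 0.249). The KO call ended under library-size scaling, in the fit of the 2 groups and without KO-empty mouse 33, 61 or 62 or KO-DHT mouse 25 or 63 (adjusted p up to 0.0226), and the interaction was 0.36 (adjusted p 0.336). None of the 4 pathway genes that rose after ORX in KO passed here: *Elovl6* was at -1.49 in WT and -1.36 in KO (adjusted p 0.191 and 0.259), *Acly* at -0.55 and -0.61 (0.514 and 0.488), *Fads1* at -0.25 and 0.13 (0.324 and 0.668), and *Fads2* at -0.10 and -0.05 (0.804 and 0.912). The pathway medians were -0.11 in WT and -0.07 in KO (-0.18 without mouse 63). In the interaction *Tecr* (-0.57, SE 0.13, adjusted p 0.0152) and *Acacb* (-0.46, SE 0.13, adjusted p 0.0482) passed 0.05, both negative, where 3.24 percent of all genes passed in either direction. The *Acacb* call ended under library-size scaling, with the white marker covariate and in 16 of the 22 fits with a library left out.

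Of the 24 droplet and PPARG-related genes, 4 fell and 0 rose after DHT in WT, and 1 fell and 1 rose in KO. Among all genes 4.64 percent fell and 6.63 percent rose in WT, and 1.75 and 2.86 percent in KO. *Klf15*, a glucocorticoid-responsive regulator of lipid and amino acid use, fell in WT from a median of 43.6 to 13.2 CPM with no overlap (-1.74, SE 0.17, adjusted p 2.38e-08). It ran at medians of 30.8 and 22.5 CPM in KO-empty and KO-DHT, and its interaction was 1.24 (SE 0.23, adjusted p 0.00233). *Cebpb*, an early regulator of fat cell formation, fell in WT (-0.89, adjusted p 0.000431, lower in 6 of 6). The adiponectin receptor *Adipor2* passed narrowly (-0.23, adjusted p 0.00988, lower in 6 of 6), and its call was lost in 17 of the 22 fits with a library left out, with the white marker covariate and in the fit of the 2 groups (adjusted p up to 0.0521). *Plin4* was the fall shared with KO, and *Fabp3* rose in KO (0.60, SE 0.14, adjusted p 0.00796). The *Fabp3* call was lost in 13 of the 22 fits with a library left out, under library-size scaling, with the white marker covariate and in the fit of the 2 groups (adjusted p up to 0.0281). The list medians were -0.09 in WT and 0.08 in KO, and -0.03 in KO without mouse 63.

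Between genotypes in the spinalis none of the 10 genes passed. With empty implants 4.25 percent of all genes passed and with DHT 11.6 percent, and edgeR, DESeq2 and limma-voom each called 0 of the 10 in both. With empty implants 0 had an unadjusted p under 0.05, 9 of 10 differences were positive and the median was 0.15. With DHT 1 did, *Dgat2* (log2 difference 0.48, adjusted p 0.127, higher in 6 of 6), all 10 were positive and the median was 0.52, against 0.01 over all genes in each. This depended on mouse 63 of KO-DHT: without it 8 of 10 were positive, the median was 0.10, and 0 had an unadjusted p under 0.05. Of the 26 pathway genes, *Srebf1* (-0.55, adjusted p 0.00846) and the phosphatase *Lpin1* (-0.52, adjusted p 0.000803) were lower in KO with empty implants, where 1.75 percent of all genes were higher and 2.50 percent lower. The *Srebf1* call was lost in 14 of the 22 fits with a library left out, under library-size scaling and in the fit of the 2 groups (adjusted p up to 0.0271), and the *Lpin1* call in the fit of the 2 groups (0.0149). With DHT *Acacb* (-0.37, adjusted p 0.00303) and *Tecr* (-0.37, adjusted p 0.00476) were lower and *Nr1h3* (0.36, adjusted p 0.00397) higher, where 5.13 percent of all genes were higher and 6.51 percent lower. All 3 calls were lost with the white marker covariate and without WT-DHT mouse 8. The *Acacb* and *Tecr* calls were also lost under library-size scaling and without KO-DHT mouse 6, *Acacb* without WT-DHT mouse 50 or KO-DHT mouse 40, *Tecr* without WT-DHT mouse 34, and *Tecr* and *Nr1h3* without mouse 63 (adjusted p up to 0.0263). Of the 24 droplet genes 2 were lower in KO with empty implants, *Rxra* (-0.43, adjusted p 0.000607) and *Plin4* (-0.57, adjusted p 0.00469). With DHT the same 2 were lower, at -0.44 (3.4e-05) and -0.56 (0.000761), and 3 were higher, *Klf15* (0.70, adjusted p 0.00239), *G0s2*, a lipase inhibitor (0.93, adjusted p 0.00962), and *Plin3* (0.37, adjusted p 0.00839). The *G0s2* call was lost in limma-voom, in the fit of the 2 groups and in 15 of the 22 fits with a library left out (values down to 0.52, adjusted p up to 0.034), and the *Plin3* call with the white marker covariate and in 13 of the 22 (adjusted p up to 0.0286). *Plin4* was the 1 white marker called in each of these comparisons. Of the 9 white markers, 7 had a positive difference with empty implants (median 0.14) and 8 with DHT (median 0.47). Without mouse 63 the white marker median with DHT was 0.30. The *Plin4* call with empty implants ended under library-size scaling, in the fit of the 2 groups and without WT-empty mouse 4 or 7 or KO-empty mouse 64, 61 or 62 (adjusted p up to 0.0276). The brown markers had 0 called by the 3 tools in both, with medians of -0.01 and 1.29 and 0 at an unadjusted p under 0.05. Without mouse 63 the median with DHT was -1.48, all 6 markers were negative and 4 had an unadjusted p under 0.05, so the sign turns on that library. As that mouse was picked for its brown sum, these values are no test of the genotype. These comparisons share their libraries with the DHT comparisons.

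Other cell types were followed by their own markers, each list fully present in both tables. Each list gene named as higher or lower between 2 groups lay on that side of the comparison group's mean in all libraries of the other group. Muscle fibre markers had 1 higher and 2 lower of 7 after ORX in WT (*Pvalb* 0.29, adjusted p 0.003; *Myh1* and *Mb* lower) and 3 lower in KO (*Myh1* -0.61, *Tnnt3* -0.20, *Mb* -0.56), 0 of which passed in KO under library-size scaling. Over all genes 2.04 percent were higher and 3.41 percent lower in WT, and 1.99 and 3.58 percent in KO. After DHT *Mb*, myoglobin, rose in WT (0.79, adjusted p 0.000498), and 0 passed in KO by the 3 tools, with 4 at an unadjusted p under 0.05. In the interactions edgeR called 0 muscle markers, with 3 (ORX) and 1 (DHT) at an unadjusted p under 0.05, 1 each by DESeq2 and 0 and 1 by limma-voom. Between genotypes *Acta1* was lower in KO in sham (-0.37), *Ckm*, *Acta1* and *Tnnt3* after ORX (-0.37, -0.50, -0.41), *Tnnt3* with empty implants (-0.37) and *Acta1* with DHT (-0.51). Fibro-adipogenic progenitor markers (5, *Cd34* most abundant) summed to 221 to 274 CPM in the gastrocnemius and 194 to 318 in the spinalis. *Pdgfra*, their defining receptor, fell after ORX in WT (-0.23) and after DHT in WT (-0.44, adjusted p 0.000454), and *Dpp4* rose after ORX in KO (0.50, adjusted p 0.00313). The progenitor list median was 0.03 after ORX in WT, with 3 of 5 positive, and 0.06 after ORX in KO, with 4 positive. After DHT in WT the median was -0.12, with 4 of 5 negative. Macrophage markers (6, *Mrc1* most abundant) summed to 106 to 157 and 107 to 198 CPM. *Csf1r* was lower after ORX in WT (-0.31) and in KO sham muscle (-0.29), and *C1qa* lower in KO after ORX (-0.48). Among these marker calls, those of *Mb* and *Pdgfra* after ORX in WT were lost in 9 and 17 of the 23 fits with a library left out, of *Tnnt3* after ORX in KO in 16, of *Csf1r* in sham in 8 and of *C1qa* in 15. Library-size scaling also ended the calls of *Mb*, *Pdgfra* and *Csf1r* after ORX in WT, of *Csf1r* in sham and of *C1qa*. The white marker covariate ended those of *Mb* and *Pdgfra* in WT and of *Ckm* after ORX, and the replicate block that of *Pdgfra* (adjusted p up to 0.0803). The fit of the 2 groups ended those of *Myh1*, *Mb* and *Tnnt3* after ORX in KO and of *Csf1r* in sham. It also ended those of *Ckm* in KO against WT after ORX and of *Tnnt3* with empty implants. Over all settings *Tnnt3* after ORX in KO came as close to 0 as -0.09 (adjusted p up to 0.166). The other gastrocnemius marker calls lost in 2 to 6 of the 23 fits were *Csf1r* after ORX in WT, *Myh1* in both genotypes, *Mb* and *Dpp4* in KO, and *Ckm* in KO against WT after ORX. In the spinalis *Tnnt3* with empty implants was lost in 6 of the 22.

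Endothelial markers (5, *Pecam1* most abundant) summed to 184 to 263 CPM in the gastrocnemius and 141 to 238 in the spinalis, and *Pecam1* rose after DHT in WT (0.33, adjusted p 0.0019), a call lost under library-size scaling (adjusted p 0.0347). Red blood cell markers (5, *Hbb-bs* most abundant) summed to 236 to 692 and 66.8 to 704 CPM. Schwann cell markers (5, *Mbp* most abundant) summed to 34.2 to 92.2 and 23.6 to 59.7 CPM. edgeR, DESeq2 and limma-voom called 0 of the red blood cell and of the Schwann cell markers in all 10 comparisons. The red blood cell counts at an unadjusted p under 0.05 were 2 after ORX in WT, 1 in KO against WT after ORX, 1 in the ORX interaction, 1 after DHT in each genotype, 4 in KO against WT with empty implants, 1 with DHT and 4 in the DHT interaction. For Schwann cells it was 2 after DHT in WT and 0 in the others. In the comparisons not named, edgeR and limma-voom called 0 of the progenitor, macrophage and endothelial markers, DESeq2 called at most 1 of a list, and up to 3 of a list had an unadjusted p under 0.05. White and brown markers in KO against WT sham muscle and in both interactions, and brown markers in KO against WT after ORX, had 0 called by the 3 tools and at most 1 at an unadjusted p under 0.05. The part of these cells in the values of the 10 genes was not tested.

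Pairs of the 10 genes were positively correlated across libraries, strongly in the spinalis and unevenly in the gastrocnemius. After removing group means, the median pairwise correlation over 22 spinalis libraries was 0.89 among the 5 adipocyte genes (10 pairs), 0.87 among the 5 lipogenesis genes (10 pairs) and 0.74 between the sets (25 pairs). Over 23 gastrocnemius libraries it was 0.61, 0.53 and 0.45. Single pairs ran from 0.58 to 0.98 in the spinalis and from 0.08 to 0.92 in the gastrocnemius, where *Fabp4* was near 0 with *Dgat2* (0.08) and *Acaca* (0.09). The same medians for other genes were not computed. *Adipoq* followed the mean log2 level of the white markers, in which each gene weighs alike, at r 0.95 (rho 0.93) in the gastrocnemius and 0.97 (rho 0.98) in the spinalis. With the summed CPM, of which *Plin4* is the most abundant part, it came to 0.34 (rho 0.26) and 0.86 (rho 0.85). Of the 5 adipocyte genes *Fabp4* followed the mean log2 level least in the gastrocnemius, at 0.44 (rho 0.43), and followed it at 0.88 (rho 0.90) in the spinalis. *Fasn* followed the mean at 0.53 (rho 0.46) and 0.68 (rho 0.65) and the sum at 0.36 (rho 0.24) and 0.56 (rho 0.55), and followed *Adipoq* at 0.45 and 0.58. *Dgat2* followed *Fasn* at 0.23 and 0.72. *Scd1* did not keep to its own set: it followed *Plin1* at 0.77 and 0.92, *Fasn* at 0.71 and 0.88, and *Dgat2* at 0.20 and 0.63. Points of one tissue share libraries and depth, so these values are descriptions with no test.

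Over the 16642 genes present in both tables, those most like *Adipoq* by the lower of its correlations in the tissues were *Plin1* (0.92 in the gastrocnemius, 0.91 in the spinalis), the activin receptor *Acvr1c* (0.90, 0.89), *Trf*, transferrin (0.88, 0.94), *Ifi27l2a* (0.86, 0.93) and *Ankef1* (0.86, 0.90). Those most like *Fasn* were *Tkt*, transketolase of the pentose phosphate pathway (0.88, 0.98), the processed pseudogene *Gm5182* (0.88, 0.99), *Acaca* (0.84, 0.98), *Acly* (0.83, 0.95) and *Thrsp* (0.77, 0.96). Counts of a processed pseudogene can hold reads of its parent gene, so the value of *Gm5182* is uncertain.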

How the data were processed

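Both tables hold raw gene counts as deposited by the authors, per muscle RNA library. The submitters' processing notes name STAR 2.7.1b, SAMtools 1.9, Picard 2.20.2 and featureCounts of Subread 2.0.0 with build GRCm39. The counting strand is not stated, but no exon of the 10 genes overlaps another gene in GENCODE M21. Of 94 other list genes 34 have such an overlap, 31 with the opposite strand, so their counts may hold reads of another gene. Those of them called in a comparison are *Me1*, *Elovl6*, *Scd2*, *Srebf1*, *Mlxipl*, *Nr1h3*, *Mid1ip1*, *Pnpla3*, *Cebpb*, *Abhd5*, *Plin4*, *Fabp3*, *Ckm*, *Myh1*, *Mb*, *Pdgfra*, *Dpp4* and *Csf1r*. Symbols and exon lengths come from GENCODE M21 (GRCm38), which matched 17433 of 17514 and 16920 of 16987 genes. Of 46 labelled samples, 45 libraries were used; the sixth KO-ORX sample was not analysed here. Each table was fitted alone with edgeR 4.0.16 (R 4.3.3) on its 4 groups, with TMM scaling, the quasi-likelihood test and Benjamini-Hochberg adjustment over all genes. Genes needed 0.5 CPM in 2 libraries, which removed 0. The threshold was an adjusted p of 0.01 or less, or under 0.05 for the interaction. Counts at an unadjusted p under 0.05 are descriptions, given without the share of all genes at that p. Log2 CPM used a prior count of 2. DESeq2 1.42.0, limma-voom 3.58.1, library-size scaling, other filters and thresholds, a white marker covariate, fits of 2 groups, a replicate block and left-out libraries were alternatives. The scripts were tested on simulated data. The fit had no pairing of mice.

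The members and lists were chosen with earlier results of these data known. The lists are 26 lipogenesis pathway genes, 24 droplet and PPARG-related genes, and markers of white fat (9), brown fat (6), muscle fibres (7), fibro-adipogenic progenitors (5), macrophages (6), endothelium (5), red blood cells (5) and Schwann cells (5). Named are all 10 members, list genes past the threshold (up to the 8 smallest p per list and comparison), the most abundant gene of each list and markers near 0, and the 5 genes most like *Adipoq* and *Fasn*. Promoters are from RefSeq (GRCm38.p6). Figures used matplotlib 3.10.9.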

Additional observations from a re-analysis of the deposited data

Results flagged for a closer look

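In 3 of the 80 groups of libraries formed by the 10 genes and 8 groups, 1 library stood far from the others, and chance alone gives about 1 in 20 groups, or 4 here. *Pparg* was 4.51 CPM in KO-ORX 2, where the next library had 7.41. *Cidec* was 33.1 CPM in KO-empty mouse 33, where the next library had 61.9. *Pparg* was 6.22 CPM in WT-empty mouse 7, where the next library had 8.95. All 3 are low values.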

How the results depend on the processing

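Groups hold 5 or 6 libraries and depth ran from 26.65 to 55.37 M counts, so small differences in genes that vary between libraries, such as *Thrsp*, may not be detectable. Fat carried with the muscle was not measured. Of the settings tried on the called members' log2 fold changes, 193 stayed past the threshold, 31 did not, and 0 reversed direction. All 80 group levels moved by less than 1 SD between effective and raw library sizes. Members called after ORX in WT numbered 1, and 0 with library-size scaling (0 to 1 with a library left out). After ORX in KO they numbered 4 (2 to 4 with a library left out). In KO against WT after ORX they numbered 2, but 4 at an adjusted p of 0.05, 0 with the white marker covariate, 3 with DESeq2, which added *Pparg* (0.57, adjusted p 0.00958), and 0 to 3 with a library left out. In the ORX interaction they numbered 0, and 1 with DESeq2. After DHT in KO they numbered 0 (0 to 1 with a library left out), and in the other comparisons 0 in every alternative. The pathway counts were tried under the same alternatives, chosen after seeing the data. After ORX in WT the count was 1, with 5 at an adjusted p of 0.05, 3 in the fit of the 2 groups and 1 to 2 with a library left out. After ORX in KO it was 4, with 7 at 0.05 and 3 to 6 with a library left out. After DHT it was 7 in WT, with 3 to 9 in the other alternatives and 4 to 8 with a library left out, and 3 in KO, with 2 to 4 and 2 to 3. Leaving out a pair together gave 5 in WT and 3 in KO (WT-DHT mice 39 and 50), 7 and 2 (KO-DHT mice 6 and 25), and 3 and 3 (WT-empty mice 4 and 7). The cause was not tested. *Scd1* after ORX in KO came to 1.00 (adjusted p 0.0119) in the fit of its 2 groups. A filter of 10 counts in every library left 15349 and 15018 genes.

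Gastrocnemius libraries with the same replicate number were not clearly more alike than others. The 33 pairs with the same number correlated at -0.15 to 0.19 (median 0.007, 6 over 0.1), and 165 with different numbers at -0.21 to 0.20 (median -0.009, 20 over 0.1). Whether a shared number joins mice cannot be told from these overlapping ranges. With the number as a replicate block, 1 member in place of 2 passed in KO against WT after ORX (*Fasn* 1.16, adjusted p 0.0118), and no other member call moved. No paired analysis was possible for DHT because the columns carry no replicate numbers of the labels.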
